A study of Rattus norvegicus with 9 samples.

Results

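Nuclear-encoded respiratory chain genes were taken as every feature whose symbol began with Nduf, Uqcr, Atp5 or Cox4 to Cox8, together with Sdha, Sdhb, Sdhc, Sdhd and Cyc1. The rule gave 227 of the 41801 features listed in the tables, of which 102 were genes and 125 carried the suffix -ps of a pseudogene. The 102 genes comprised 41 of complex I, 4 of complex II, 9 of complex III, 21 of complex IV, 19 of complex V and 8 assembly factors of the Nduf family, with Ndufa4 counted in complex IV. They were measured in cells from the circular osteotomy site of the proximal tibia of Sprague-Dawley rats aged 6 to 8 weeks, each of which also had a full-thickness skin wound on the foot of the same side. The TO libraries came from osteotomy without radial extracorporeal shock waves (rESWT) and the TOE libraries from osteotomy with rESWT of that site on postoperative day 2, and for the day 4 libraries on day 4 as well. The 8 libraries were TO_2d_0h, TO_2d_4h, TO_4d_4h, TO_4d_24h, TOE_2d_4h, TOE_2d_24h, TOE_4d_4h and TOE_4d_24h, named by arm, day and hours to collection. Each condition was 1 library, and the series' design text gives 9 rats for its 9 samples. TO_2d_24h was not analysed here.

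The respiratory chain passes electrons from NADH through complex I, or from succinate through complex II, to complex III and then by way of cytochrome c to complex IV, which reduces oxygen. Complexes I, III and IV pump protons across the inner mitochondrial membrane, and complex V, the ATP synthase, uses the gradient to make ATP. A handful of core subunits are encoded by mitochondrial DNA, while the genes described here are transcribed in the nucleus and their proteins imported. In bone marrow, dividing progenitors and osteoclasts are known for a high content of mitochondria, whereas mature neutrophils rely mainly on glycolysis.

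Promoters of 88 of the 102 genes were found in the RefSeq table of the GRCr8 build, each as a window of 250 bases before the transcription start and 50 after it. Windows were searched on both strands for GCGCATGC, the core of the site of NRF1, and for CCGGAAGT, the core of the site of GABPA, both known regulators of mitochondrial genes. The NRF1 core was present in 11 of the 88 windows (12.5%) and in 731 of all 27457 windows (2.66%). The GABPA core was present in 8 of the 88 (9.09%) and in 1102 of all windows (4.01%). No member window held both, against 0.240% of all windows. The 150 bases before the start of 4 genes that recur below are printed with matches in capitals. These 4 were chosen after their expression had been seen, to show what the matches look like in genes of complexes I, IV and V. In Atp5me (chr14:1464710-1464859, plus strand), Atp5mc2 (chr7:135678219-135678368, minus strand) and Ndufa11 (chr9:1637464-1637613, plus strand), each capital stretch is read as the NRF1 core on either strand. In Cox8a (chr1:213833624-213833773, minus strand), the capitals mark the GABPA core read from the opposite strand.
Atp5me: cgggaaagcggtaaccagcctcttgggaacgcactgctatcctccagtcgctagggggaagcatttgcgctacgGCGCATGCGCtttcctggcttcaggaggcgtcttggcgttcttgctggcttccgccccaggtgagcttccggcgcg
Atp5mc2: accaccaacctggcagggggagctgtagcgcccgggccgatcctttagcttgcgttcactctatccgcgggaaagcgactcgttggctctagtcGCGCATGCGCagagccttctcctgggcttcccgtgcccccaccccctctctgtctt
Ndufa11: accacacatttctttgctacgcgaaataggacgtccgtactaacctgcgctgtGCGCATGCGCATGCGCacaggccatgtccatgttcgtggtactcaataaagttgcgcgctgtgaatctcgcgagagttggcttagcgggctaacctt
Cox8a: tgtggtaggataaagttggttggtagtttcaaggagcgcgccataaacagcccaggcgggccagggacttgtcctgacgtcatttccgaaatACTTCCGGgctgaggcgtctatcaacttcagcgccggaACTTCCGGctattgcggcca
The match in Atp5me began 76 bases before the start and that in Atp5mc2 56 bases before it. Ndufa11 held overlapping matches from 97 to 89 bases before the start, and Cox8a held matches at 58 and 20 bases. A match describes these letters and was not tested as a binding site.

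The libraries held 95954800 to 144146202 UMIs (unique molecular identifiers, each counting 1 captured transcript) in 116711 barcodes, of which 110492 cells were kept, 11935 to 16226 per library. Cells were clustered without the members and without mitochondrially encoded genes among the variable genes, and clusters were named from marker lists. B-lineage cells were the most numerous, with 58169 B-cell-like cells, followed by 12723 neutrophil-like and 11642 monocyte-like cells, while 950 cells were osteoblast-like and 401 osteoclast-like. TOE_4d_24h held 78 erythroid-like cells. All of them lay in cluster 2, which was given no stage, so none counted as early or late erythroid-like. Of 115096 distinct barcode sequences 1601 occurred in more than 1 library, with at most 110 shared by any 2 libraries. Gene levels below are in CPM, for which the UMI total of each population was scaled to 1000000. Since transcripts were counted at their ends, no length scaling was applied and levels of different genes are UMI shares, not copy numbers. A lower share of UMIs and less RNA per cell cannot be told apart from CPM, so member UMIs per cell are given beside it.

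The 102 genes gave 15496051 UMIs in the kept cells. Cox4i1, a nuclear core partner of the catalytic subunits of cytochrome c oxidase, was the most abundant with 657152 UMIs (4.23% of the members' UMIs). It was followed by the oxidase subunits Cox6c (486870 UMIs) and Cox8a (479496 UMIs), the ATP synthase epsilon subunit Atp5f1e (477871 UMIs) and Cox6b1 (468085 UMIs). The 10 most abundant genes held 29.9% of the UMIs. Among the pseudogene symbols 124 of 125 had no UMI, and Ndufb4-ps6 carried 28934 UMIs. Cox8b (35 UMIs), Cox8c (1 UMI), Ndufb4l1 (1 UMI) and Atp5hl1 (no UMI) were the genes under 100 UMIs. Ndufs6 had 2356 UMIs beside 142100 for its near copy Ndufs6l1, and reads of such pairs may have been split by the counting.

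Summed over the members, CPM differed several-fold between cell types. Osteoclast-like cells, the multinucleate bone-resorbing cells, stood highest, with a lowest, median and highest library of 28659, 34038 and 46648 CPM over the 6 libraries with at least 20 such cells. Granulocyte-monocyte progenitor-like cells followed at 23823, 26820 and 31942 CPM over 8 libraries, and monocyte-like cells at 17712, 21879 and 24000 CPM. The ranges of osteoclast-like and progenitor-like cells overlapped, as did those of progenitor-like and monocyte-like cells. At the other end, mature neutrophil-like cells ranged over 4758, 6326 and 7286 CPM, late erythroid-like cells over 4939, 6352 and 7608 CPM in 7 libraries, and small pre-B-like cells over 7297, 8991 and 10952 CPM. On these totals the ranges of mature neutrophil-like and late erythroid-like cells overlapped, and both lay under the lowest library of cycling pre-B-like cells (13785 CPM). The place of late erythroid-like cells depended on the abundant genes in the total. With mitochondrially encoded, haemoglobin and the 20 most abundant genes left out, late erythroid-like cells ranged over 13649, 17602 and 23244 CPM, above the mature neutrophil-like cells (6413, 9115 and 11420 CPM) and across the range of the cycling pre-B-like cells (15319, 17297 and 20055 CPM). Macrophage-like cells had a median of 18388 CPM, early erythroid-like cells 12872 CPM and mature B-like cells 9388 CPM, beside 15848 CPM over all cells. With the same genes left out, early erythroid-like cells stood at 20935 CPM, above the 18791 CPM of all cells and not below it.

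**Figure D1:**
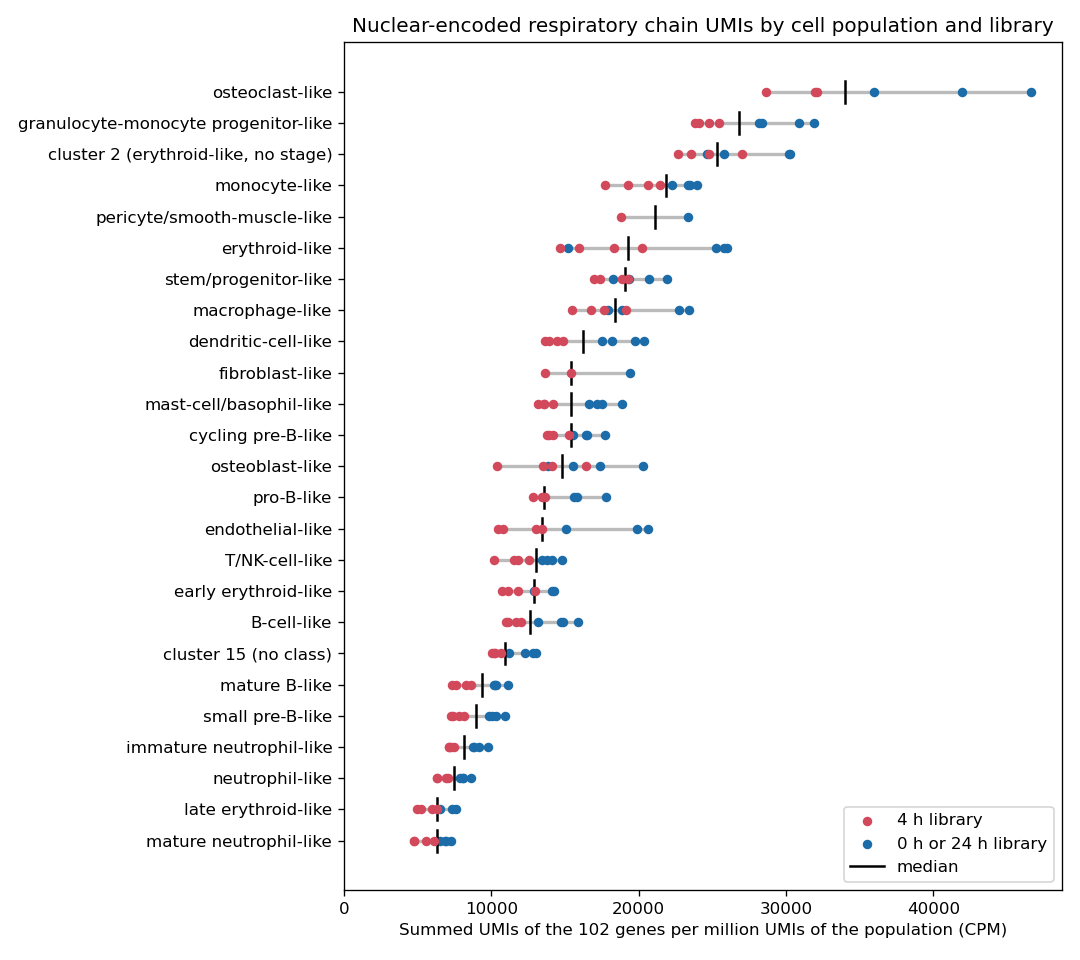
Summed CPM of the 102 nuclear-encoded respiratory chain genes in each cell population, with a point for each library coloured by hour, a line for the range and a bar for the median (clusters 2 and 15 by number). Osteoclast-like cells (median 34038 CPM) and granulocyte-monocyte progenitor-like cells (26820 CPM) sit highest, and mature neutrophil-like (6326 CPM) and late erythroid-like cells (6352 CPM) lowest on totals of all UMIs, the latter at 17602 CPM without mitochondrially encoded, haemoglobin and the 20 most abundant genes.

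Per cell, the difference between these populations was wider. The median library gave 909 member UMIs per osteoclast-like cell, 759 per granulocyte-monocyte progenitor-like cell and 330 per monocyte-like cell. It gave 34.2 per small pre-B-like cell, 34.1 per late erythroid-like cell and 27.2 per mature neutrophil-like cell. Small pre-B-like cells therefore carried fewer member UMIs than cycling pre-B-like cells (165 per cell) both as a share and per cell.

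The split between complexes moved less than the sum. In granulocyte-monocyte progenitor-like cells the median library held 6239 CPM for complex I, 359 for complex II, 2822 for complex III, 8711 for complex IV, 8256 for complex V and 246 for the assembly factors. In neutrophil-like cells the corresponding medians were 1972, 117, 745, 2495, 2048 and 72.1 CPM. Without the mitochondrially encoded, haemoglobin and 20 most abundant genes in the total, the neutrophil-like medians were 3247, 201, 1246, 4151, 3357 and 116 CPM, and their sum over all members moved from 7466 to 12365 CPM. Complex IV led in both of these populations, while complex V led in osteoclast-like cells (11185 CPM against 9190 CPM for complex IV). In erythroid-like cells, too, complex V (6791 CPM) stood above complex IV (5022 CPM). The order of complexes IV and V in the other populations is not given here. Neither order is therefore read as particular to the cells named. Set against the 13 subunits encoded by mitochondrial DNA, the nuclear sum was 1.16 times the mitochondrial one in the median library of granulocyte-monocyte progenitor-like cells. The ratio was 0.547 in mature B-like and 0.639 in small pre-B-like cells, and it varied between libraries from 0.331 to 0.988 in the latter. The mitochondrial sum is also a mark of RNA quality and moved with the hour of collection, as given below.

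Several subunits exist as paralogues with tissue-bound use, and their balance differed between cell types. Ndufa4l2, a paralogue of the complex IV subunit Ndufa4 known to respond to low oxygen, supplied 57.9% of the UMIs of the pair in pericyte/smooth-muscle-like cells (95% Wilson interval 55.2 to 60.6%, covering counting error only). That population had 56 cells in 2 libraries, with shares of 50.6% and 80.3%. The share was 12.03% in fibroblast-like cells, 4.97% in cluster 0 of the B-cell-like cells, 3.85% in osteoblast-like cells and 0.0327% in granulocyte-monocyte progenitor-like cells. Cox4i2, the alternative isoform of Cox4i1, was also highest in pericyte/smooth-muscle-like cells. It made up 24.7% of its pair there (21.4% and 30.9% in the 2 libraries) and 8.31% in osteoblast-like cells (3.63 to 24.3% over 8 libraries), against 0.0203% in granulocyte-monocyte progenitor-like cells. Cox6b2 reached 8.79% of the Cox6b pair in pericyte/smooth-muscle-like, 3.88% in mast-cell/basophil-like and 3.27% in small pre-B-like cells, and 0.118% in monocyte-like cells. Cox6a2, the muscle isoform of Cox6a1, was 2.57% of its pair in osteoblast-like cells (1.56 to 9.33% over the libraries).

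Atp5mc1, Atp5mc2 and Atp5mc3 encode the same mature c subunit of the ATP synthase rotor ring with different import sequences. Atp5mc2 led in small pre-B-like cells with 68.4% of the UMIs of the 3 genes (61.7 to 71.6% over the libraries), where Atp5mc1 supplied 12.7%. In erythroid-like cells pooled over stages Atp5mc1 was highest at 38.4% (31.3 to 46.7%), and 63.2% of the UMIs of that class came from cluster 2, with 1334 of its cells and an Atp5mc1 share of 39.1%. In early erythroid-like cells Atp5mc3 was highest at 45.0% (34.0 to 52.2%). Osteoclast-like cells shared the transcripts almost evenly between Atp5mc2 (36.5%) and Atp5mc1 (35.2%). Cox7a2l, which links complexes III and IV into supercomplexes, gave 86.1% of the UMIs of Cox7a1, Cox7a2 and Cox7a2l in small pre-B-like cells and 84.6% in mature B-like cells, and 47.7% in osteoclast-like cells. The lowest library of small pre-B-like cells (78.7%) lay above the highest of osteoclast-like cells (61.9%).

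**Figure D2:**
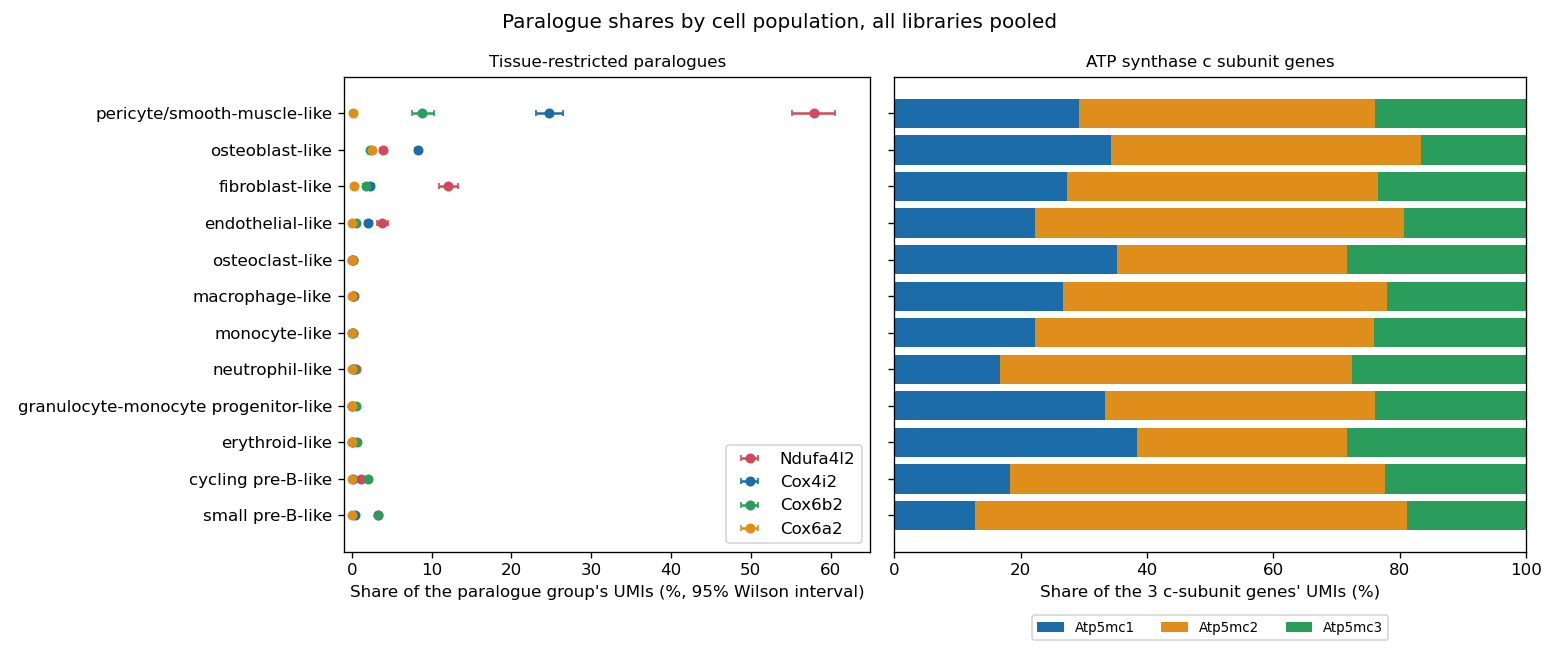
Paralogue use by cell population, all libraries pooled. The left panel gives the share of UMIs of Ndufa4l2, Cox4i2, Cox6b2 and Cox6a2 in their pairs (95% Wilson intervals, counting error only). The right panel gives the shares of Atp5mc1, Atp5mc2 and Atp5mc3. Ndufa4l2 reaches 57.9% in pericyte/smooth-muscle-like cells and stays at 0.0327% in granulocyte-monocyte progenitor-like cells.

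Neutrophil maturation was examined by comparing mature neutrophil-like with granulocyte-monocyte progenitor-like cells within libraries. Of the 227 members 93 passed the filter on low counts, and by edgeR's quasi-likelihood test with library as a block, at an adjusted p under 0.05, 86 were lower and 3 were higher in the mature cells. Over all 12493 genes tested, 41.4% were lower and 42.1% higher. The median log2 fold change of the members was -1.66 beside 0.01 over all genes. All 18 tested genes of complex V, all 9 of complex III and all 4 of complex II were lower, as were 35 of 39 of complex I, 14 of 15 of complex IV and 6 of 8 assembly factors.

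Atp5mc1 fell most. It stood at 11.4, 29.5 and 39.2 CPM (lowest, median and highest library) in mature neutrophil-like cells against 458, 552 and 811 CPM in the progenitor-like cells, a log2 fold change of -3.95 (SE 0.15, edgeR adjusted p 2.15e-14). The 2 ranges lay far apart, and every library moved the same way. Cox7b, an accessory oxidase subunit, ranged over 16.9, 36.5 and 53.8 CPM against 424, 578 and 748 CPM, with a log2 fold change of -3.49 (SE 0.14, edgeR adjusted p 6.21e-14). Ndufaf4, a complex I assembly factor, was nearly absent from mature cells at 0.314, 1.56 and 7.82 CPM against 20.2, 27.9 and 58.5 CPM (log2 fold change -3.41). The mature neutrophil-like libraries held 1789985 to 6361594 UMIs over all genes. Its mature values thus rest on few UMIs, and the size of its fall is uncertain. Cox5a, another oxidase subunit, was the leading member of the progenitor-like cells at 1105, 1398 and 1846 CPM and stood at 73.1, 101 and 118 CPM in mature cells. Among the core subunits, the ATP synthase beta subunit Atp5f1b changed by -2.43, Cyc1 by -1.86, Sdhb by -1.65, the Rieske protein Uqcrfs1 by -1.22 and the flavoprotein Sdha by -0.83 on the log2 scale. The fall thus spanned a wide range, from the c subunit at one end to the membrane subunit Atp5pb (-0.32) at the other.

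Only the 3 genes Ndufaf7, Ndufaf2 and Ndufa8 were called higher in this fit. Ndufaf7 is a methyltransferase that acts on complex I during assembly. It ranged over 25.1, 34.2 and 46.7 CPM in mature neutrophil-like against 12.5, 18.7 and 23.8 CPM in progenitor-like cells. With TMM scaling it was 2.83-fold higher (edgeR adjusted p 6.13e-08), which is not the fold of these CPM values. Its ranges did not overlap. Those of Ndufaf2, an assembly chaperone, and of the complex I subunit Ndufa8 did, with log2 fold changes of 0.65 and 0.54. By library size alone, without TMM scaling, the median of all genes moved to -0.55, 89 members were lower and 1 higher (51.6% and 32.5% of all genes), and Ndufa8 was at -0.02. Among the other lists, 12 of 13 mitochondrially encoded subunits, 14 of 16 citrate cycle genes and 35 of 41 other assembly and carrier genes were lower, the last led by the complex III assembly factor Uqcc5 at -5.02. Of 12 biogenesis regulators 7 were lower and 3 higher. Glycolysis genes were split, with 8 higher and 10 lower of 18, and the glucose transporter Slc2a3 was at 5.74. All 76 ribosomal protein genes, a list added after the results had been seen, were lower as well. Their median was -2.95, beside -1.66 for the members.

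**Figure D3:**
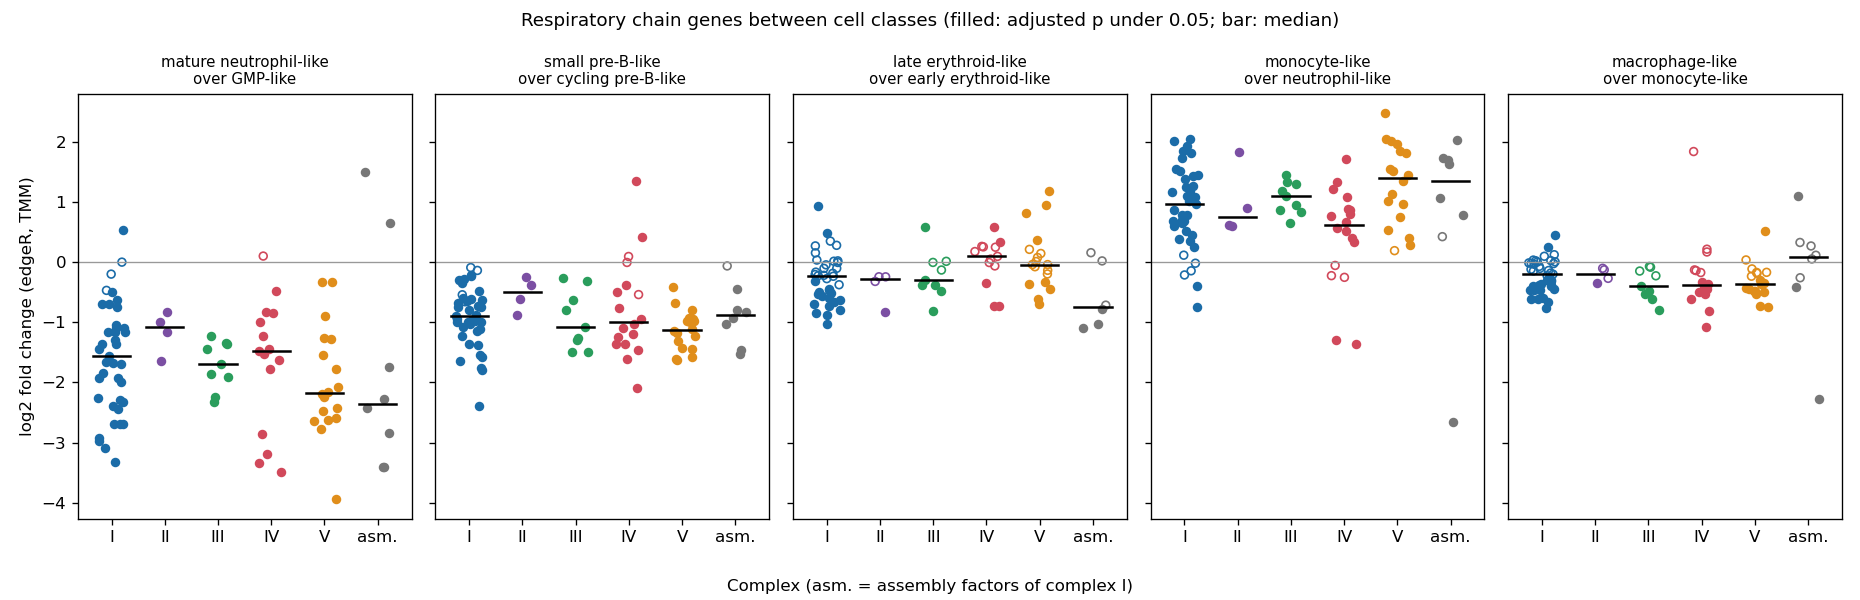
Log2 fold change of each tested member in the 5 comparisons of cell classes, by complex (asm., assembly factors; GMP, granulocyte-monocyte progenitor-like). Nearly all members lie under 0 in mature neutrophil-like against progenitor-like cells and in small against cycling pre-B-like cells, and above 0 in monocyte-like against neutrophil-like cells, while the erythroid centre depends on the scaling.

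Small pre-B-like cells, the resting stage that follows pre-B proliferation, were compared with cycling pre-B-like cells. Of 98 members tested 88 were lower and 2 higher in the small cells by edgeR's quasi-likelihood test, beside 36.3% lower and 32% higher of 16397 genes (68.3% in either direction), and the median log2 fold change was -0.95. Ndufa12, an accessory subunit of the electron-input arm of complex I, fell most, from 98.6, 113 and 151 CPM in cycling to 14.8, 26.8 and 31.5 CPM in small cells (log2 fold change -2.39, SE 0.08, edgeR adjusted p 6.41e-13). Cox7b went from 251, 286 and 447 to 52.2, 76.6 and 139 CPM (log2 fold change -2.09, SE 0.07), and Ndufa11 from 122, 153 and 200 to 31.8, 48.3 and 68.2 CPM (-1.79, SE 0.07). None of these 3 pairs of ranges overlapped. The c-subunit genes changed unequally, with log2 fold changes of -1.57 for Atp5mc1, -1.43 for Atp5mc3 and -0.95 for Atp5mc2. Sdha (-0.24) and Ndufs1 (-0.29), core subunits of complexes II and I, changed least among the core genes, and their ranges overlapped. Cluster 7, which supplied 3999 of the cycling pre-B-like cells, had a median of 4115 UMIs per cell against 8920 to 14461 in the other clusters of that name, and 53.4% of its cells came from TOE_4d_24h. Its 10 leading genes included Rag2, Fcrl1 and Gimap7 and no named histone or cell division gene, which goes against the name. Without them, an alternative chosen after seeing the data, 88 members were lower and 2 higher of 97, beside 36.4% and 32.4% of all genes, the median was -0.99, and the summed level of cycling pre-B-like cells was 13802, 15351 and 17801 CPM.

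Cox7a2l went the other way. It was at 514, 550 and 580 CPM in small against 349, 368 and 389 CPM in cycling pre-B-like cells, higher in 8 of 8 libraries (log2 fold change 0.42, SE 0.05, edgeR adjusted p 4.79e-07). Cox4i2 was also called higher (log2 fold change 1.34, adjusted p 0.000149 by edgeR's test) but rested on few UMIs, at 0.489 to 2.02 against 0.21 to 0.853 CPM. Without TMM scaling the median of all genes was at 0.11 and 82 members were lower and 2 higher (31.4% and 38.1% of all genes). All 13 mitochondrially encoded subunits were lower by 0.24 to 0.89 on the log2 scale, as were 15 of 18 glycolysis genes, among them Gapdh at -2.49. Of the biogenesis regulators 5 of 12 were lower, with the coactivator Ppargc1b at -2.32 and the mitochondrial transcription factor Tfam at -1.05, and 3 were higher, with Esrra at 0.95. Citrate cycle genes (11 of 16 lower, 1 higher) and other assembly and carrier genes (31 of 41 lower, 2 higher) moved mostly in the same direction. Ribosomal protein genes were lower in 76 of 76 cases, with a median of -0.73 beside -0.95 for the members.

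In erythroid cells the call depended on the scaling. In the 7 libraries with both stages, 33 of 87 members were lower and 9 higher in late than in early erythroid-like cells by edgeR's quasi-likelihood test, beside 30.1% and 31.9% of 8495 genes. By library size alone 83 were lower and none higher, beside 68% and 7.45% of all genes, and the median of all genes was at -1.07. The members' CPM sums were 4939, 6352 and 7608 in late against 10702, 12872 and 14272 in early cells. The values below are therefore relative to the typical gene. Atp5if1, the inhibitor of ATP synthase that is also known from haem synthesis, was the most abundant member of both stages. Its CPM was near equal, at 762, 967 and 1199 in late against 788, 924 and 1296 in early cells, and its log2 fold change was 0.95 (SE 0.13, edgeR adjusted p 1.61e-07) with TMM scaling and -0.11 without. Atp5mc2 (log2 fold change 1.18) and Ndufa1 (0.93) were the other leading rises, with overlapping CPM ranges, and Ndufa1 was at -0.14 without TMM scaling. Atp5mc2 was at -1.18 when no cell filter was applied and at -0.87 with doublets kept.

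Core subunits of complexes I and II were among the falls. The CPM ranges of 59 of the 87 members were separate, beside 39% of 8495 genes, while 42 members were called, and CPM ranges are set on totals without TMM scaling. Ndufs1 stood at 1.93, 2.78 and 4.93 CPM in late against 9.42, 12.4 and 24.3 CPM in early erythroid-like cells (log2 fold change -1.04, SE 0.32, edgeR adjusted p 0.00542). The late erythroid-like libraries held 843636 to 2068263 UMIs over all genes, so these late values rest on few UMIs, close to the limit of counting. Ndufs1 passed the filter on low counts through the early cells, and its late values alone would not have passed. Sdha went from 28.3, 38.5 and 51.8 to 5.80, 10.8 and 14.2 CPM (log2 fold change -0.83, SE 0.19). The assembly factors Ndufaf6 (-1.10) and Ndufaf5 (-1.03) were at overlapping levels, and Ndufaf6 ranged from 0 to 189 CPM among libraries of early cells. The count was 24 without the library block (7 higher, 17 lower), 72 without a cell filter (8 and 64) and 75 with doublets kept (4 and 71), beside 57.5%, 70.8% and 73.3% of all genes. Of the other lists, 11 of 14 glycolysis genes were higher and 3 lower, with Slc2a1 at 1.93 and Pfkm at -2.12, while 6 of 13 mitochondrially encoded subunits were lower and 1 higher. Biogenesis regulators (5 of 7 lower), citrate cycle genes (3 higher and 4 lower of 16), other assembly and carrier genes (4 higher and 5 lower of 27) and ribosomal protein genes (1 higher and 38 lower of 76) were counted with TMM scaling alone.

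Monocyte-like cells were compared with the neutrophil-like class, immature and mature. Cluster 15, with 2805 cells led by defensin genes such as Defa5 and a summed level of 10922 CPM beside 7466 CPM in that class, stayed unnamed and was not part of it. By edgeR's quasi-likelihood test 82 of 96 members were higher and 5 lower in monocyte-like cells, beside 41% and 37.1% of 15578 genes (78.1% in either direction), with a median log2 fold change of 0.96 beside 0.08 over all genes. Atp5mc1 ranged over 184, 282 and 300 CPM against 20.1, 32.7 and 41.4 CPM (log2 fold change 2.47, SE 0.10, edgeR adjusted p 1.4e-10). The catalytic-head subunit Atp5f1a was at 319, 380 and 461 against 46.0, 63.0 and 86.2 CPM (2.05, SE 0.07), and the acyl carrier protein Ndufab1, shared by complex I and fatty acid synthesis, at 99.8, 133 and 156 against 11.7, 20.6 and 32.4 CPM (2.04, SE 0.10). All 3 had separate ranges and were higher in 8 of 8 libraries. Smaller differences were found for Cox8a (0.51), Cox6a1 (0.57) and Ndufa4 (0.33), although all 3 were called, and the ranges of Ndufa4 overlapped. With cluster 15 added to the neutrophil-like class, an alternative chosen after seeing the data, 82 of 97 members were higher and 7 lower (37.6% and 36.6% of all genes), the median was 0.73, Atp5mc1 was at 1.75, Ndufab1 at 1.26 and Ndufa4, now lower, at -0.23.

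Ndufaf2 was the main exception, at 3.93, 5.11 and 6.52 CPM in monocyte-like against 13.05, 20.5 and 45.0 CPM in neutrophil-like cells (log2 fold change -2.66, SE 0.20, edgeR adjusted p 3.49e-08). Its level was thus lower in 8 of 8 libraries while most of the complex it helps to assemble stood higher. Cox4i2 (-1.36) and Ndufa4l2 (-1.30) were also called lower, at medians under 1 CPM in both classes, and Cox4i2 lost its call with cluster 15 added (-0.94, edgeR adjusted p 0.0885). Without TMM scaling, 89 members were higher and 1 lower (57.2% and 22.9% of all genes) and the median of all genes was at 0.68. All 13 mitochondrially encoded subunits, 14 of 16 citrate cycle genes and 33 of 41 other assembly and carrier genes were higher. So were 76 of 76 ribosomal protein genes, with a median of 2.31 beside 0.96 for the members. Glycolysis genes were divided between 5 higher and 8 lower of 19, with Slc2a3 at -7.58, and biogenesis regulators between 6 higher and 4 lower of 12, with Ppargc1b at 3.84 and Ppargc1a at -4.31.

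Macrophage-like cells differed less from monocyte-like cells. Of 94 members 47 were lower and 4 higher in macrophage-like cells by edgeR's quasi-likelihood test, beside 28.8% and 25.5% of 15150 genes (54.3% in either direction), with a median log2 fold change of -0.26. Ndufaf7 went from 36.4, 71.1 and 88.1 CPM in monocyte-like to 6.20, 16.1 and 21.3 CPM in macrophage-like cells (log2 fold change -2.27, SE 0.17, edgeR adjusted p 5.43e-08). Cox5a went from 489, 603 and 677 to 220, 332 and 389 CPM (-1.08, SE 0.09), and Cox7b from 324, 394 and 617 to 209, 248 and 301 CPM (-0.82, SE 0.10). These 3 genes had separate ranges. Ndufaf2 was higher at 8.82, 10.6 and 20.8 against 3.93, 5.11 and 6.52 CPM (log2 fold change 1.10, SE 0.15), and Atp5if1 at 320, 450 and 604 against 187, 286 and 350 CPM (0.52, SE 0.09), each in 8 of 8 libraries. The pseudogene Ndufb4-ps6 was the third in size among the called rises at 0.45, with overlapping ranges. Without TMM scaling 36 were lower and 9 higher, beside 21% and 31.6% of all genes, and the median of all genes was at 0.12. The count fell to 23 without the library block (2 higher, 21 lower, beside 41.7% of all genes) and to 19 with coarser clusters (8 and 11, beside 33.8%), where the median was 0.0086 and 14 of the 51 genes kept their call and direction. With a stricter cell filter (500 genes or more, mitochondrial share no higher than 10%) it was 34, with 15 higher and 19 lower, beside 56.5%, the median was 0.0057 and 22 of the 51 kept both. In other lists, 11 of 16 citrate cycle genes were lower and 1 higher, and 7 of 19 glycolysis genes were higher and 1 lower. Of the ribosomal protein genes 75 of 76 were lower, with a median of -0.58 beside -0.26 for the members. Mitochondrially encoded subunits (2 of 13 higher, none lower), biogenesis regulators (3 higher and 3 lower of 12) and other assembly and carrier genes (4 higher and 10 lower of 41) had few calls.

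Of arm, day and hour of collection, members were called for hour alone in these fits. The 4 libraries collected at 4 h were compared with the 4 collected at 0 or 24 h in additive fits with arm and day. In B-cell-like cells 36 of 98 members were lower and 2 higher at 4 h by edgeR's quasi-likelihood test, beside 6.81% and 6.67% of 18606 genes, with a median log2 fold change of -0.46. In neutrophil-like cells 15 of 93 were lower and 2 higher, beside 1.94% and 1.55% of 12989 genes, 3.49% in either direction (median -0.35). In monocyte-like cells 21 of 98 were lower and 4 higher, beside 5.15% and 5.87% of 15563 genes (median -0.30). Complex I accounted for 17, 7 and 8 of the lower calls in the 3 classes in that order, complex V for 8, 4 and 4, complex III for 4, 2 and 4, and complex IV for 4, 1 and 1.

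**Figure D4:**
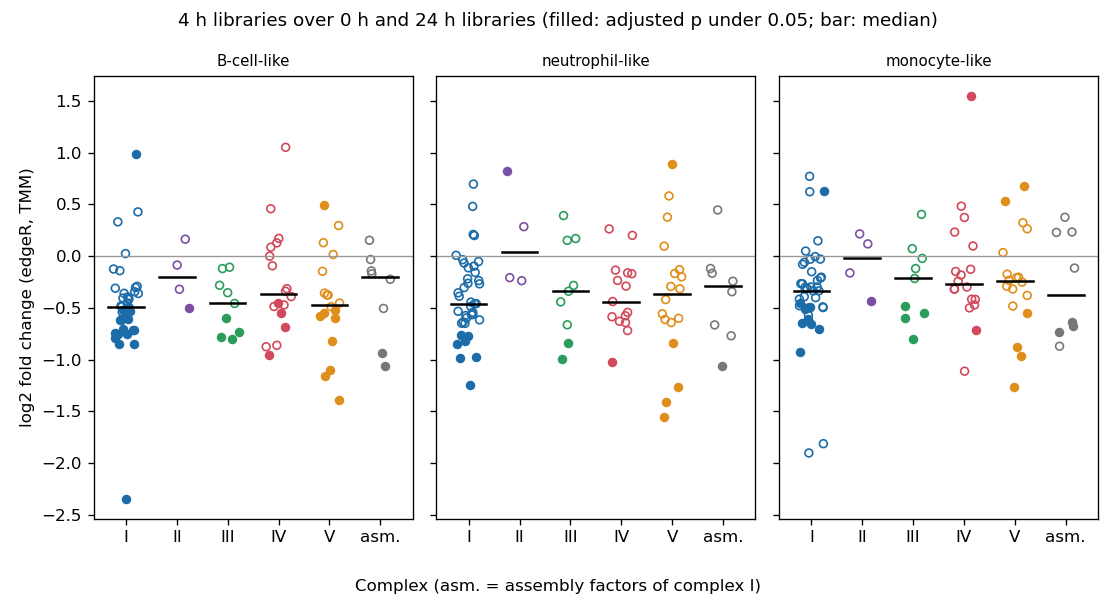
Log2 fold change of each tested member at 4 h against 0 and 24 h in B-cell-like, neutrophil-like and monocyte-like cells. Atp5me and Atp5mk lie among the lowest called members in each class, at -1.39 and -1.16 in B-cell-like cells, and Atp5f1b lies above 0 in all 3, at 0.50, 0.89 and 0.68.

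Among the called members, Atp5me had the largest fall in neutrophil-like and monocyte-like cells and the largest after the sparsely counted Ndufa10l1 in B-cell-like cells. In monocyte-like cells Ndufb11b (-1.90, from 11 against 30 UMIs) and Ndufa10l1 (-1.81, from 14 against 43 UMIs) had lower fitted values and were not called. Atp5me, subunit e of the membrane part, was at 98.0 CPM in TO_2d_4h, 76.0 in TO_4d_4h, 82.0 in TOE_2d_4h and 86.9 in TOE_4d_4h of B-cell-like cells. It was at 224 CPM in TO_2d_0h, 207 in TO_4d_24h, 177 in TOE_2d_24h and 265 in TOE_4d_24h. Every 4 h library lay under every other library, and the log2 fold change was -1.39 (SE 0.16, edgeR adjusted p 0.00548). In neutrophil-like cells the same gene was at 64.5, 57.2, 50.6 and 59.1 CPM at 4 h, in the order of libraries just used, and at 160, 135, 154 and 176 CPM at 0 and 24 h (log2 fold change -1.56, SE 0.19, edgeR adjusted p 0.00774). In monocyte-like cells Atp5me was at 137, 99.8, 118 and 134 CPM at 4 h and at 298, 258, 295 and 340 CPM at 0 and 24 h (-1.27, SE 0.14, edgeR adjusted p 0.0056). Again no 4 h library reached the lowest of the others. With each library left out in turn, the adjusted p of Atp5me by edgeR's test ranged from 0.00186 to 0.0388 over the 3 classes, apart from 0.0631 in neutrophil-like cells without TO_4d_4h.

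Atp5mk, a small subunit at the dimer interface, and Atp5f1e changed alike. In B-cell-like cells Atp5mk stood at 110, 93.0, 92.6 and 95.9 CPM at 4 h against 215, 216, 179 and 237 CPM at 0 and 24 h, in the same order of libraries (log2 fold change -1.16, SE 0.14). Its log2 fold change was -1.41 in neutrophil-like and -0.97 in monocyte-like cells. Atp5f1e in B-cell-like cells stood at 317, 259, 254 and 291 CPM at 4 h against 601, 586, 576 and 562 CPM, a log2 fold change of -1.10 (SE 0.13), with -1.27 in neutrophil-like and -0.88 in monocyte-like cells. Neither gene had overlapping groups in any of the 3 classes. Outside complex V, the oxidase subunit Cox7a2 was called lower in all 3 classes (-0.95, -1.03 and -0.72), as was the complex I subunit Ndufb1 (-0.52, -1.24 and -0.93). In B-cell-like cells the largest fitted fall was that of Ndufa10l1 (-2.34), at 0.11 to 0.148 CPM against 0.512 to 0.83 CPM, close to the limit of counting.

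Other subunits did not fall. Atp5f1b, the catalytic beta subunit, was called higher at 4 h in all 3 classes. In B-cell-like cells it was at 405, 458, 511 and 520 CPM at 4 h against 318, 345, 286 and 342 CPM (log2 fold change 0.50, SE 0.12, edgeR adjusted p 0.0365). In neutrophil-like cells it was at 116, 125, 191 and 165 CPM against 82.0, 64.7, 71.8 and 68.5 CPM (0.89, SE 0.17, edgeR adjusted p 0.0295). In monocyte-like cells it was at 682, 694, 832 and 846 CPM against 471, 450, 500 and 495 CPM (0.68, SE 0.12, edgeR adjusted p 0.0165). The groups were separate in each class. With each library left out in turn, Atp5f1b stayed above 0, at 0.43 to 0.56, 0.82 to 0.98 and 0.60 to 0.71 in the 3 classes, but kept its call in 1, 1 and 3 of 8 fits, with edgeR adjusted p of 0.0319 to 0.125, 0.0232 to 0.136 and 0.00635 to 0.0704. Sdhc, a membrane anchor of complex II, was also higher in neutrophil-like cells (0.82), and Ndufa6 (0.63), Atp5mc3 (0.53) and the sparsely counted Cox7b2 (1.55) in monocyte-like cells. Cox4i1 (-0.32, -0.29 and -0.13) and Cox5a (0.00, 0.26 and 0.23) were not called in any of the 3 classes.

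**Figure D5:**
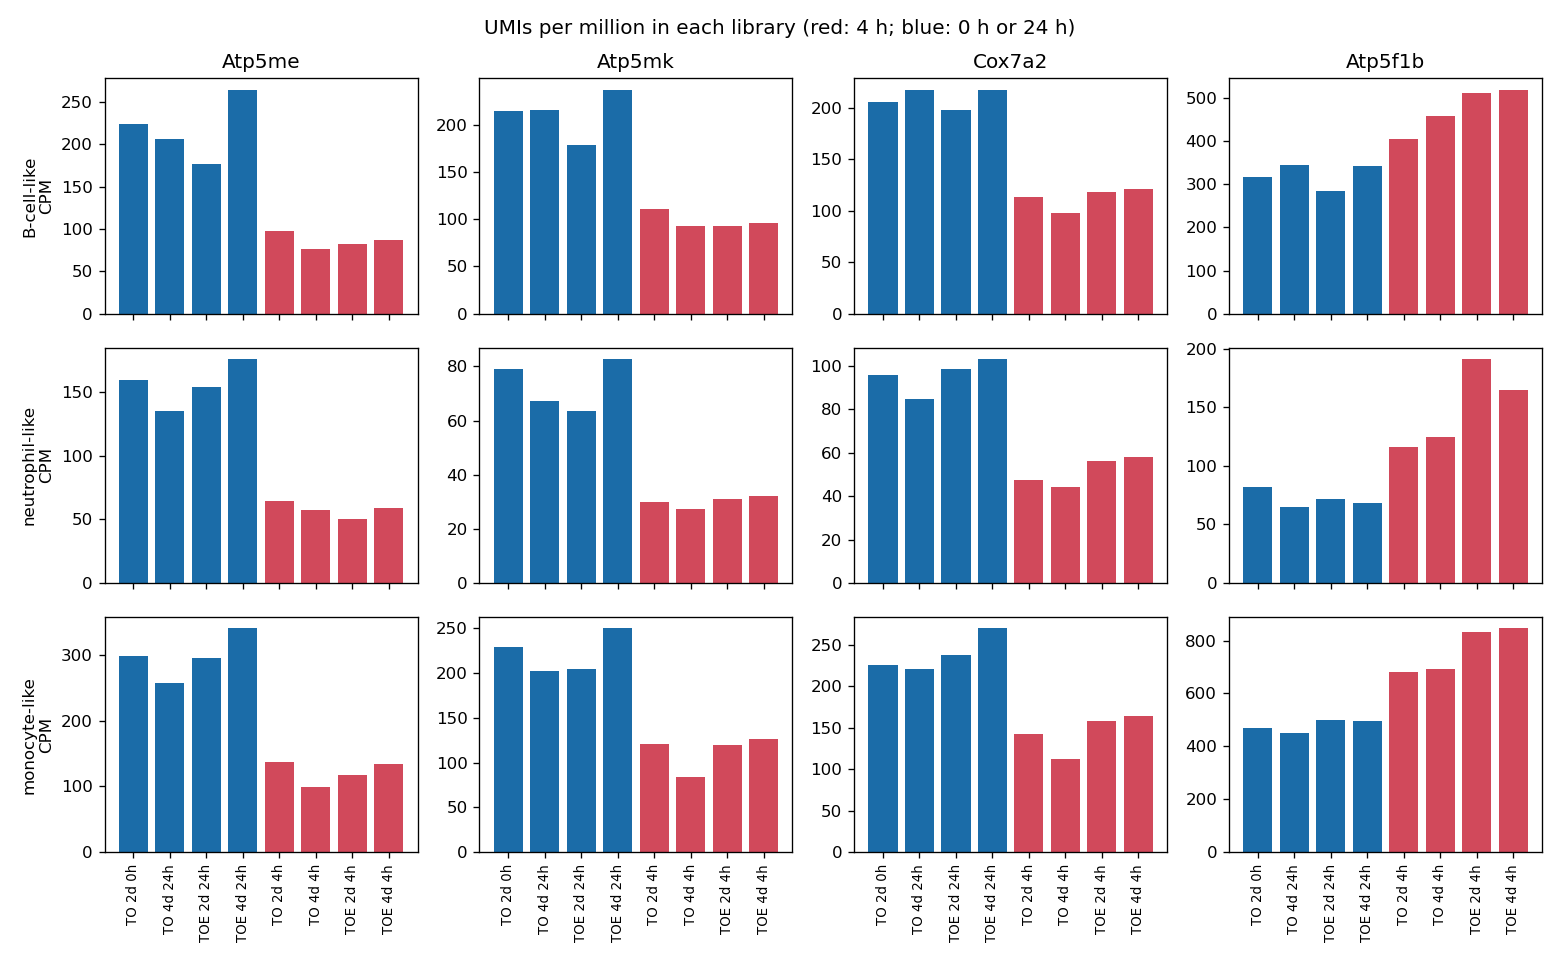
CPM of Atp5me, Atp5mk, Cox7a2 and Atp5f1b in each library in B-cell-like, neutrophil-like and monocyte-like cells, with 1 bar per library and axes from 0. Atp5me, Atp5mk and Cox7a2 are lower and Atp5f1b higher in each of the 4 libraries collected at 4 h.

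The number of calls for hour rested on the set of libraries. In B-cell-like cells, 38 calls became 4 without TO_2d_0h, 5 without TO_2d_4h, 4 without TO_4d_4h, 5 without TO_4d_24h, 17 without TOE_4d_4h and 62 without TOE_4d_24h. The shares of all genes called moved in step, from 13.5% to 0.857%, 1.23%, 1.25%, 1.22%, 4.91% and 24.4% in that order. In neutrophil-like cells, 17 became 4 without TO_2d_0h, 5 without TO_2d_4h, 0 without TO_4d_4h, 3 without TO_4d_24h, 2 without TOE_2d_4h, 5 without TOE_2d_24h, 6 without TOE_4d_4h and 34 without TOE_4d_24h. Of all genes 3.49% became 1.13%, 1.03%, 0.271%, 0.996%, 0.93%, 2.21%, 1.09% and 9%. In monocyte-like cells, 25 became 1 without TO_2d_0h, 3 without TO_2d_4h, 2 without TO_4d_4h, 2 without TO_4d_24h, 4 without TOE_2d_4h, 8 without TOE_2d_24h and 51 without TOE_4d_24h. Of all genes 11% became 1.4%, 1.68%, 1.34%, 1.85%, 2.51%, 5.26% and 23%. Small pre-B-like cells alone gave 37 lower and 2 higher of 97, beside 5.86% and 7% of 14448 genes. Mature neutrophil-like cells alone gave 6 lower and none higher of 89, beside 0.525% and 0.907% of 10476 genes.

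Other measures moved with the hour. Libraries collected at 4 h had a median mitochondrial share per barcode of 2.08 to 2.85%, and those at 0 or 24 h of 2.68 to 4.24%. Mitochondrially encoded subunits were lower at 4 h in 5, 4 and 6 of 13 cases in B-cell-like, neutrophil-like and monocyte-like cells, with none higher. Ribosomal protein genes moved in both directions in the same classes, with 28 lower and 12 higher, 15 and 5, and 16 and 15 of 76. Rps29 was at -1.21, -1.71 and -1.22 and Rpl38 at -1.22, -1.51 and -1.04, while Rpl23a was at 1.41, 1.23 and 1.47 and Rpl21 at 1.34, 1.31 and 1.44. The glycolytic enzyme Aldoa was at -2.50, -3.14 and -2.35 and was the only glycolysis gene called lower in each class. Few genes of the other lists were called, with 4, 1 and 6 other assembly and carrier genes lower and 0, 0 and 1 higher, 1 citrate cycle gene lower in B-cell-like and 1 higher in monocyte-like cells, and 2 biogenesis regulators higher in monocyte-like cells. Cluster 0, a B-cell-like cluster of 9785 cells, had 2987 in TO_2d_0h, 2799 in TO_4d_24h and 3850 in TOE_2d_24h, and between 20 and 39 in each of the other 5 libraries. Cluster 10, also B-cell-like, had 5355 cells in the 4 h libraries and 392 in the others, and mature B-like cells numbered 1391 to 2045 per library at 4 h and 414 to 1044 otherwise. In all, 7 of 13 B-cell-like clusters, with 33536 of 58169 cells, and 2 of 5 monocyte-like clusters, with 4507 of 11642 cells, held over 90% of their cells in 1 of the 2 hour groups, and none of the 5 neutrophil-like clusters did. The monocyte-like clusters were cluster 31, with 13 cells at 4 h and 1857 otherwise, and cluster 32, with 2558 and 79. The part of these in the members' change was not tested. Hour cannot be told apart from anything else the 4 libraries of a group share.

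Arm and day gave no calls among the members. The arm compared TOE with TO in 98 members of B-cell-like, 93 of neutrophil-like and 98 of monocyte-like cells, and edgeR's quasi-likelihood test called 0 in each class, as did DESeq2, beside 0% of all genes. At an unadjusted p under 0.05 there were 2, 0 and 2 members, beside 577 of 18606, 574 of 12989 and 1459 of 15563 genes. For day 4 against day 2, edgeR and DESeq2 likewise called 0 members in each class, none had an unadjusted p under 0.05 beside 330, 312 and 472 of all genes, and the background was 0% in B-cell-like and neutrophil-like and 0.00643% higher in monocyte-like cells. The median log2 fold change for the arm was -0.07 in B-cell-like, 0.02 in neutrophil-like and 0.10 in monocyte-like cells, with single members between -0.59 and 1.82. No gene of the other lists was called for arm or day in these classes. These fits have 8 libraries and do not show that members were alike in the 2 arms.

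Matched libraries with and without rESWT can be set side by side as values, with no test. In B-cell-like cells the members' sum was 10995 CPM in TO_2d_4h and 12035 in TOE_2d_4h, 11122 in TO_4d_4h and 11670 in TOE_4d_4h, and 15861 in TO_4d_24h and 14716 in TOE_4d_24h. The ratios of TOE over TO were 1.09, 1.05 and 0.928. In neutrophil-like cells the ratios were 1.10, 1.12 and 0.973, and in monocyte-like cells 1.07, 1.21 and 1.05. The median ratio of all genes in the same pairs was 1.09, 1.02 and 1.11 in B-cell-like, 1.18, 0.979 and 1.10 in neutrophil-like and 1.09, 0.974 and 1.11 in monocyte-like cells. The sums of the TOE libraries were higher in each 4 h pair. Ratios of sums and medians over genes are unlike measures, so the median ratio of the members is given too. It was 1.14, 1.05 and 0.922 in B-cell-like, 1.16, 1.13 and 1.01 in neutrophil-like and 1.15, 1.27 and 1.05 in monocyte-like cells. At 4 h it lay above that of all genes, except in neutrophil-like cells on day 2. At 24 h it lay under that of all genes. Exact intervals on these ratios cover counting error only and say nothing of the spread between animals.

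Counts past 1.5-fold were read against those of all genes. At day 2 and 4 h, 7 of 97 members were higher and 2 lower in TOE among B-cell-like cells, beside 18.1% and 11.7% of genes, 15 and 2 of 88 among neutrophil-like cells, beside 28.3% and 10%, and 3 and 1 of 92 among monocyte-like cells, beside 14.1% and 7.6%. At day 4 and 4 h they were 0 and 1 of 97 (5.25% and 2.34%), 2 and 1 of 88 (5.93% and 6.35%) and 8 and 1 of 92 (6.99% and 6.91%). At day 4 and 24 h they were 7 and 4 of 96 (28.6% and 13.8%), 5 and 4 of 88 (27.5% and 17.7%) and 3 and 0 of 92 (24.7% and 12.5%). All of these shares but that of the 8 members higher in monocyte-like cells lay under the share of all genes. Over all cells, the counts were 5 and 1 of 98 at day 2 and 4 h (15.5% and 13.9%), 3 and 1 at day 4 and 4 h (5.07% and 8.47%) and 6 and 11 at day 4 and 24 h (28.2% and 15.1%).

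Single members stood out in particular pairs. Sdha was at 40.4 CPM in TO_2d_4h and 67.8 in TOE_2d_4h of B-cell-like cells, a ratio of 1.68 (1.59 to 1.78), while at day 4 and 4 h its ratio was 0.95. Ndufaf7 was lower in both 4 h TOE libraries of monocyte-like cells, at 36.4 against 60.9 CPM on day 2 (ratio 0.598) and 40.3 against 66.6 CPM on day 4 (ratio 0.605). In the same cells Ndufa3, an accessory subunit of complex I, was at 97.1 against 53.1 CPM on day 4 at 4 h (ratio 1.83, 1.70 to 1.96), and Cox7b was at 617 against 363 CPM on day 4 at 24 h (ratio 1.70, 1.64 to 1.76). In neutrophil-like cells on day 4 at 24 h, Ndufs1 was at 12.5 against 3.68 CPM (ratio 3.41, 2.35 to 5.08) and Uqcrfs1 at 64.2 against 120 CPM (ratio 0.537, 0.493 to 0.586). In B-cell-like cells of that pair Ndufa4l2 was at 2.68 against 7.77 CPM (ratio 0.345, 0.278 to 0.425), and the pseudogene Ndufb4-ps6 at 60.7 against 30.4 CPM (ratio 2.00). The largest ratio over all cells was that of Cox6a2 on day 4 at 4 h (4.07, 2.49 to 6.97), from 94 against 20 UMIs. Of the neutrophil-like cells of TOE_4d_24h, 2534 of 2904 (87.3%) lay in clusters 18 and 33, against 228 of 2091 (10.9%) in TO_4d_24h, so the class sat in different clusters in that pair. The same held for monocyte-like cells, of which 94.9% in TOE_4d_24h and 10.7% in TO_4d_24h lay in cluster 12, and cluster 31 held 50.2% of those of TO_4d_24h. In the B-cell-like cells of the day 2 and 4 h pair, cluster 9 was 2.70% of TO_2d_4h and 20.1% of TOE_2d_4h, and cluster 23 was 1.91% and 16.7%. In the day 4 and 24 h pair, cluster 0 was 47.8% of the B-cell-like cells of TO_4d_24h and 0.562% of those of TOE_4d_24h. Cluster 9 was 2.12% and 30.2% of them, and cluster 7 was 7.81% and 30.7%. The Ndufa4l2 share of cluster 0 is given above. The part of these clusters in the single ratios was not tested. TOE_4d_24h, on 1 side of the 24 h pairs, had 39 cells of cluster 0. Its 78 erythroid-like cells all lay in cluster 2, so it had none named early or late.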

How the data were processed

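Cells of tibial osteotomy tissue were profiled with the 10x Genomics Chromium system in 8 libraries, 1 for each condition. The authors deposited raw UMI counts per gene and barcode. The submitters' processing notes name Cell Ranger 9.0.0, Seurat, R 4.0.3 and the builds mRatBN7.2 and GRCh38, and the role of each build is not given in the sources used here. Members and lists were chosen with earlier results of these data known.

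Barcodes with 200 genes or more and a mitochondrial share no higher than 20% passed, and barcodes with a Scrublet score over 0.25 were removed as doublets. Cells were clustered with scanpy 1.11.5 (2000 variable genes, 30 components, 15 neighbours, Leiden resolution 2, 45 clusters) and named from marker lists, with a minimum gap to the next class and other naming rules set after the clusters had been seen. Counts were summed per library and class with at least 20 cells and tested with edgeR 4.0.16 (TMM, filterByExpr, quasi-likelihood F-test, Benjamini-Hochberg adjustment over all genes, 0.05). Class contrasts had library as a block and condition contrasts were additive in arm, day and hour. DESeq2 1.42.0 was an alternative. The scripts were checked on simulated counts for the pre-B contrast and for hour and arm in B-cell-like cells. Few genes were changed there, as many up as down. The check therefore does not cover TMM scaling in class contrasts, where most genes were called. Fold changes with TMM are relative to the typical gene. The p-values measure the spread between libraries, and the sources used here do not tie each library to 1 animal. Intervals are at 95%, and pairs used genes with at least 50 UMIs. Named genes were paralogue groups, core subunits and, in each contrast or pair, the 3 members with the largest rise and fall, and any other gene named was picked with its values in view. The lists were mitochondrially encoded subunits, biogenesis regulators, citrate cycle, glycolysis, other assembly and carrier genes and, added later, ribosomal protein genes. Promoters were read from the RefSeq GRCr8 table, a build that the submitters' notes do not name. No protein sequences were used here.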

Additional observations from a re-analysis of the deposited data

Results flagged for a closer look

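A test for a single library far from the others was run on 42 groups of 4 libraries, the sums of each complex and of all members in 3 cell classes at 4 h and at 0 and 24 h. It marked 2 of them, where chance marks about 1 in 20. The complex V sum of neutrophil-like cells was 2367 CPM in TO_2d_0h, above the 2155 to 2182 CPM of the other libraries collected at 0 or 24 h. Cluster 36 held 314 of the 1213 neutrophil-like cells of that library (25.9%) and no more than 1.48% of those of any other. The complex II sum of monocyte-like cells was 407 CPM in TO_4d_24h, under the 431 to 435 CPM of the others in that group. No cause was tested.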

How the results depend on the processing

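Counts of calls between cell classes were stable for mature neutrophil-like against progenitor-like cells, small against cycling pre-B-like cells and monocyte-like against neutrophil-like cells. Each stayed within 1.5 times of its count under every alternative run. With 1 library left out these counts ranged over 89 to 91, 88 to 91 and 85 to 88. The erythroid count of 42 became 83 without TMM scaling, 24 without the library block, 72 without a cell filter and 75 with doublets kept, and ranged over 35 to 45 with 1 library left out. It was not run at Leiden resolution 1, which gave no late erythroid-like cluster. The macrophage count of 51 became 23 without the block and 19 at resolution 1, and ranged over 46 to 50. Of its 51 genes, 46 kept their direction and 22 also their call with the stricter cell filter given below, and 42 and 14 at resolution 1. For the hour, the B-cell-like count was 18 with a stricter cell filter (500 genes or more, mitochondrial share no higher than 10%), 23 without a cell filter and 20 with members among the variable genes, the neutrophil-like count 29 with hour as the only term, 27 with doublets kept and 6 in mature neutrophil-like cells alone, and the monocyte-like count 16 without a filter on low counts. With 1 library left out, these 3 counts ranged over 4 to 62, 0 to 34 and 1 to 51. Except where given above, the share of all genes called is not set beside these counts. Their changes are therefore not read as particular to the members. Arm and day stayed at 0 in every alternative. The causes were not tested. Clusterings made under these alternatives changed when repeated with other linear algebra settings, so their counts are approximate.

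Among the core subunits, paralogues and leading changes, signs turned in 29 single-gene values that were called in either fit. A further 227 lost their call, 74 gained a call and 3950 were unchanged in call. Of all called members, 34 of 42 kept their direction in erythroid cells without TMM scaling, 38 without a cell filter and 38 with doublets kept. In small pre-B-like cells 87 of 90 kept their direction without a cell filter, and 70 also their call. Both were kept by 81 of the 90 with doublets kept, and by 82 with the stricter cell filter and 82 at resolution 1. In mature neutrophil-like against progenitor-like cells Ndufa8 was at -0.018 without TMM scaling. In small pre-B-like cells Ndufa4l2 was at 0.46 with the stricter cell filter and without one, and at 0.51 with members among the variable genes. In late erythroid-like cells without TMM scaling, Atp5if1 was at -0.11, Atp5mc1 at -0.98, Cox5a at -0.91, Cox6a1 at -0.81, Cox6b1 at -0.82, Cox7a2 at -0.97, Cox7a2l at -0.47, Cox8a at -0.74 and Ndufa1 at -0.14. Without a cell filter Atp5mc1 was at -2.43, Atp5mc2 at -1.18, Cox4i1 at 0.26, Cox5a at -1.37 and Cox8a at -0.12, and with doublets kept Atp5mc1 was at -2.18, Atp5mc2 at -0.87, Cox5a at -0.56 and Cox8a at -0.16. In monocyte-like against neutrophil-like cells Cox7a1 was at 0.38 without TMM scaling and Ndufa4 at -0.23 with cluster 15 among the neutrophil-like cells. In macrophage-like against monocyte-like cells, with the stricter filter, Atp5mc3 was at 0.053, Cyc1 at 0.16, Ndufs1 at 0.017 and Sdha at 0.27, and Cox7a1 was at 0.31 at resolution 1.

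Leaving mitochondrially encoded, haemoglobin and the 20 most abundant genes out of the totals moved the summed level to 9115 CPM in mature neutrophil-like, 12365 in neutrophil-like, 25745 in erythroid-like, 32663 in granulocyte-monocyte progenitor-like, 17297 in cycling pre-B-like, 17602 in late erythroid-like, 20935 in early erythroid-like, 25478 in monocyte-like and 21770 in macrophage-like cells. With at least 200 UMIs in a pair, 2 of 96 members were past 1.5-fold over all cells at day 4 and 4 h. Both were higher in TOE, beside 3.53% of all genes higher and 6.31% lower. In B-cell-like cells of that pair there were 0 of 93, beside 2.50% and 1.10%. In neutrophil-like cells at day 2 and 4 h there were 11 of 80. Of these, 9 were higher and 2 lower, beside 17.95% and 10.5% of all genes. Without the abundant genes, the members past 1.5-fold numbered 5 of 88 in neutrophil-like cells at day 4 and 4 h. Of these, 4 were higher and 1 lower, beside 7.64% and 4.91% of all genes. The arm gave 0 calls in each class in the 3 matched pairs with the pair as a block. The labels give no shared replicate numbers, with 1 library for each condition, so no fit by replicate number was made.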

Other observations

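Among clusters that no marker list named to a stage or class, cluster 2, an erythroid-like cluster of 1334 cells led by Bex4, Car1 and Ly6al, had member sums of 22675, 25296 and 30309 CPM (lowest, median and highest of 8 libraries) and 711 member UMIs per cell in the median library. Its nuclear sum was 1.57 times the mitochondrially encoded one, the highest median ratio of the populations measured. Cluster 28, of which 95.7% of 2075 cells came from TO_2d_4h, stood at 13034 and 13252 CPM in the 2 libraries with enough cells.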
